A study of Homo sapiens with 6 samples.

Results

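The mRNAs of purine synthesis were followed in RNA of the fractions that hold no polysomes (40S to 80S) of a sucrose gradient, in cells with a knockout of LARP1 and in their parental cells. The group held 10 genes of the 14574 in the table, each found by its symbol. They were PPAT, GART, PFAS, PAICS, ADSL and ATIC of the route to inosine monophosphate (IMP), IMPDH1, IMPDH2 and GMPS of the guanine branch, and HPRT1 of the salvage route. They were chosen by their place in the pathway and by their knockout and parental RNA-seq values, which were known beforehand, IMPDH2 beside IMPDH1. Differences between knockout and parental cells are therefore given for the members as a description, with no test. All 10 members passed the filter on low values.

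HCT116 is an established human colorectal carcinoma line. There were 2 RNA-seq libraries from LARP1 KO cells, 2 transcription start site (TSS) libraries from parental cells and 2 RNA-seq libraries from parental cells. All cells, knockout and parental alike, had received the mTOR kinase inhibitor TAK228 (250 nM, 48 h, renewed after 24 h). For the TSS libraries the RNA of parental replicates 1 and 2 was decapped and ligated to an RNA oligonucleotide before sequencing. The labels do not say how the knockout was made or how many clones carried it, nor whether replicates came from separate cultures, so the spread between libraries may be technical.

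Cells build purines on a ribose phosphate activated as PRPP, adding the ring atoms step by step from glutamine, glycine, aspartate, carbon dioxide and formyl groups carried by folate. IMP is the branch point: adenine nucleotides are made from it by one route, and guanine nucleotides by IMP dehydrogenase and then GMP synthetase. Proliferating and tumour cells depend mainly on IMPDH2, while IMPDH1 is the isoform best known from the retina. Growth signalling through mTOR raises purine synthesis. LARP1 binds mRNAs with a terminal oligopyrimidine (TOP) motif next to their cap, a C followed by a run of pyrimidines at the very start of the mRNAs for ribosomal proteins and translation factors, and holds such mRNAs with the 40S subunit when mTOR is inhibited.

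Because LARP1 reads the start of an mRNA, the annotated starts of the members are shown. RefSeq promoter entries on GRCh38.p14 matched 8 of the 10 members, with none for IMPDH2 and ADSL. Each line below gives 10 bases before the annotated start and the 20 bases from it on, 5′ to 3′ on the gene's strand, with the longest run of C and T in capitals; where a gene had several entries, the one nearest to the gene's 5′ end in GENCODE was used.
PPAT: gcgccgccgcagtagctggggccaCCCTCg
GART: cggctggggtagaggtgctgacgTTTgcgc
PFAS: atgacgtaacaaacgcgcgcgacgaTTCga
PAICS: gggtggagctagCCTTCCCCTaagagctgc
ATIC: TTCCTgagccgccacatcccggcagccctc
IMPDH1: CCTCCTCgggactcgaccgggctgcgctca
GMPS: aggcgggggcagcgtgcgcgctgctggTCT
HPRT1: gCTTCTCCTCagcttcaggcggctgcgacg
None of the 8 opened at its annotated start base with C and at least 4 further pyrimidines, against 4.07% of all 35116 promoter entries. HPRT1 and PAICS had the longest runs, 9 bases each, and 8.48% of all entries held a run at least that long in the same window. The HPRT1 run ended 1 base before the annotated start, and the PAICS run began 2 bases after the annotated start base. Annotated starts can differ from those used in HCT116, and the deposited table gives TSS libraries as levels per gene and not as positions.

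The mRNA of LARP1, the targeted gene, was looked at first. It had 356 and 284 normalised read counts (reads divided by the authors' size factor for the library) in the knockout libraries, against 633 and 770.3 in the parental RNA-seq libraries. LARP1 mRNA was lower but still present, with a log2 fold change of -1.13 (SE 0.18, limma adjusted p = 2.86e-09). Among all genes tested, 12.2% had a lower log2 fold change. This mRNA level does not show whether LARP1 protein was lost. In the knockout comparison, limma set each gene's spread by a trend over level, called the intensity trend here. The SEs and p-values of that comparison therefore do not measure the spread of a gene's own libraries. Without the intensity trend, the limma adjusted p of LARP1 was 0.0284. Recovered reads outside mitochondrial genes numbered 6267820 to 6364713 in the knockout libraries, 6984443 to 9063478 in the TSS libraries and 6771393 to 7633063 in the parental RNA-seq libraries. The mitochondrial ribosomal RNA MT-RNR2 took 63.1% and 62.5% of all recovered reads in the knockout libraries. Its share was 55.2% and 59.0% in the TSS libraries and 55.3% and 57.9% in the parental RNA-seq libraries. Of 14561 genes tested between knockout and parental RNA-seq libraries, 25.1% were called lower and 3.77% higher by limma (calls here take an adjusted p under 0.05). The median log2 fold change over all genes was -0.29. After the median of each library's log2 values was subtracted, which is called centring here, it was 0.02 and these shares were 16.2% and 14.6%. The deposited table gives levels in the fraction, so retention of an mRNA in the fraction and its abundance in the cell cannot be told apart, nor can fewer cells with the mRNA and less of it per cell. Of 10 markers of a colorectal epithelial line, 6 were among the listed genes (KRT8, KRT18, KRT19, EPCAM, CDH1 and CDX2). Their summed level was 10343 to 11952 in the knockout libraries, against 13094 to 13782 in the parental RNA-seq libraries. The fibroblast markers COL1A1 and COL3A1 summed to 36.2 to 69.5 in the knockout libraries, against 12.2 to 21.5 in the parental RNA-seq libraries, while the other 4 fibroblast markers, 5 leukocyte markers and 3 endothelial markers were not among the listed genes; their part in the results was not tested.

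Of the members, IMPDH2 had the highest level in parental cells and the largest difference. IMPDH2, the IMP dehydrogenase isoform of dividing cells and the enzyme that commits IMP to guanine nucleotides, had 937 and 851 normalised read counts in the knockout libraries, against 9899 and 8956 in the parental RNA-seq libraries. Both knockout libraries lay far below both parental libraries, and no other member differed by as much. The means were 894 ± 60.7 in the knockout and 9428 ± 667 in parental cells (SD, n = 2 each), 10.5-fold lower in the knockout, with a log2 fold change of -3.40 (SE 0.15). Among all 14561 genes tested, 0.721% had a lower log2 fold change, which placed IMPDH2 at rank 106 from the lowest. IMPDH2 lies on chromosome 3, 49024325 to 49029408 on the minus strand (GRCh38, GENCODE release 29). An antisense gene overlaps its exons there, and since no source used here states whether the counting used strand, reads from both could not be told apart.

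IMPDH1 carries out the same reaction. It had 428 and 344 normalised read counts in the knockout libraries, against 412 and 353 in the parental RNA-seq libraries. The ranges overlapped, and the means of 386 ± 59.2 in the knockout and 383 ± 41.3 in parental cells (SD, n = 2 each) were nearly equal, with a log2 fold change of 0.01 (SE 0.18). After centring, the IMPDH1 value was 0.32 and that of IMPDH2 -3.09. The log2 fold changes of the isoforms thus differed by -3.40 (IMPDH2 minus IMPDH1), a difference that no scaling of whole libraries changes. IMPDH1 lies on chromosome 7, 128392277 to 128410252 on the minus strand. GENCODE names 7 pseudogenes after it, none of them among the listed genes, so part of its reads may be uncertain.

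The balance of both isoforms within a library does not depend on scaling. IMPDH2 made up 68.7% and 71.2% of all IMPDH reads in the knockout libraries, with 95% Wilson intervals of 66.5% to 70.8% and 69.1% to 73.3%. In the TSS libraries its share was 96.6% and 96.3%. For parental RNA-seq libraries it was 96.0% and 96.2%. The knockout values were the lowest. In reads, IMPDH2 had 1227 and 1247 in the knockout libraries, against 7354 and 7348 in the parental RNA-seq libraries, while IMPDH1 had 560 and 504 in the knockout libraries, against 306 and 290 in the parental ones. IMPDH2 still gave 2.19 and 2.47 times as many reads as IMPDH1 in the knockout libraries, against 24.0 and 25.3 times as many in the parental RNA-seq libraries. Of the reads of all 10 members, IMPDH2 took 22.6% and 23.6% in the knockout libraries, against 67.8% and 63.4% in the parental RNA-seq libraries. Since molecules were not counted, the intervals cover counting error only.

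**Figure D1:**
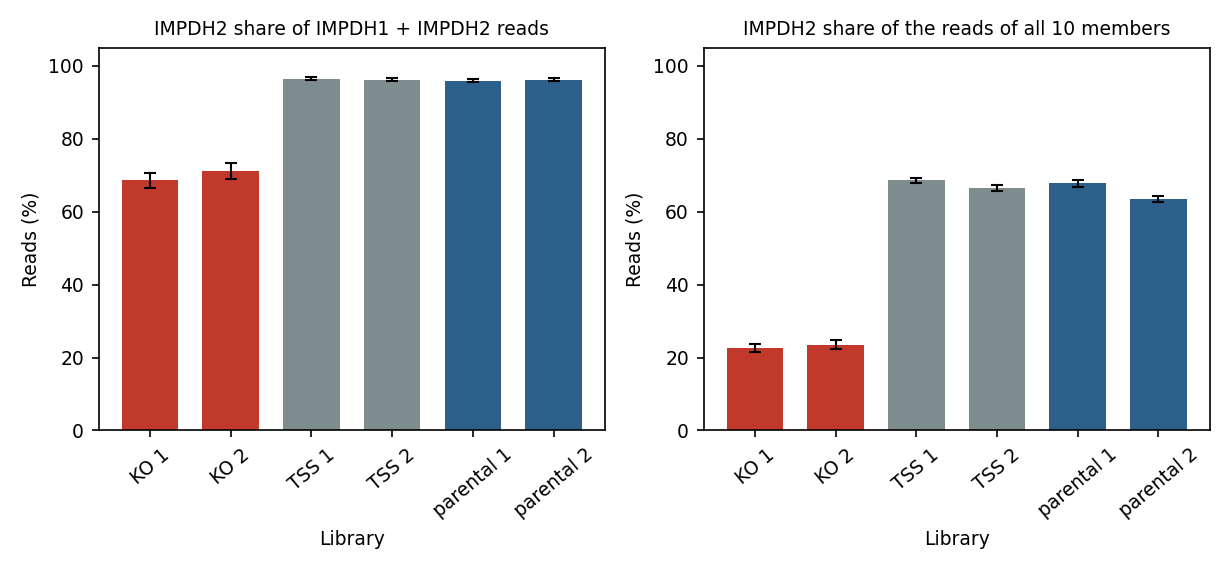
Bars give the IMPDH2 share of IMPDH1 and IMPDH2 reads (left) and of the reads of all 10 members (right), in percent, in each library; error bars are 95% Wilson intervals. The knockout libraries stand at 68.7% and 71.2% on the left, against 96.0% to 96.6% in the 4 parental libraries.

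GMPS follows IMP dehydrogenase and uses glutamine to turn xanthosine monophosphate into GMP. It had 372 and 313 normalised read counts in the knockout libraries, against 789 and 785 in the parental RNA-seq libraries. Both knockout libraries were below both parental libraries, whose values were close to each other. The means were 343 ± 41.5 in the knockout and 787 ± 2.78 in parental cells (SD, n = 2 each), 2.30-fold lower (log2 fold change -1.20, SE 0.17; -0.89 after centring). GMPS lies on chromosome 3, 155870536 to 155944026 on the plus strand, and has 1 named pseudogene. In the guanine branch, then, IMPDH2 and GMPS were lower in the knockout and IMPDH1 was level with the parental cells on the deposited scaling and 0.32 above them (log2) after centring.

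HPRT1, the salvage enzyme that makes IMP and GMP from hypoxanthine and guanine, was the least abundant member and second to IMPDH2 in the size of its difference. It had 16.0 and 9.56 normalised read counts in the knockout libraries, against 68.7 and 112 in the parental RNA-seq libraries. All of these rest on few reads, 21 and 14 in the knockout libraries, against 51 and 92 in the parental ones, but the groups did not overlap. The means were 12.8 ± 4.58 in the knockout and 90.4 ± 30.7 in parental cells (SD, n = 2 each). On the log2(value + 1) scale HPRT1 was 6.62-fold lower (log2 fold change -2.73, SE 0.34, or -2.42 after centring), less than the ratio of these means. It was -2.81 with 0.1 added in place of 1, -2.41 with 5 added, and -2.83 with edgeR or DESeq2. The value before centring also depended on the library left out, from -3.08 without parental replicate 1 to -2.38 without parental replicate 2. HPRT1 lies on chromosome X, 134460153 to 134520513, and has 3 named pseudogenes.

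The route to IMP did not move as a block. PPAT, the glutamine amidotransferase that opens the route and is held back by its end products, had 244 and 203 normalised read counts in the knockout libraries, against 248 and 305 in the parental RNA-seq libraries. The lowest parental library was barely above the highest knockout library (log2 fold change -0.30, SE 0.20, against a median gene of -0.29), and it was 0.01 after centring. GART, a single protein with the enzyme activities of the second, the third and the fifth step, had 461 and 427 in the knockout libraries, against 502 and 648 in the parental RNA-seq libraries. Its groups were also close, with a log2 fold change of -0.36 (SE 0.17), or -0.05 after centring. GART (chromosome 21, 33503931 to 33543491, minus strand) shares exonic bases with SON, a splicing cofactor gene on the opposite strand that is among the listed genes, so its value is uncertain. PFAS, the amidotransferase of the fourth step, had 236 and 214 in the knockout libraries, against 201 and 177 in the parental RNA-seq libraries. On the deposited scaling it was the member with both knockout libraries above both parental ones, with a log2 fold change of 0.26 (SE 0.21), or 0.57 after centring. PFAS lies on chromosome 17, 8247618 to 8270491 on the plus strand.

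The later enzymes of the route were lower in the knockout. PAICS, which joins the carboxylation and the aspartate-adding step in a single protein, had 943 and 744 normalised read counts in the knockout libraries, against 1458 and 1679 in the parental RNA-seq libraries. The groups were well apart at 1.87-fold lower (log2 fold change -0.90, SE 0.16; -0.59 after centring). ADSL, which removes fumarate here and again on the way to AMP, had 412 and 402 in the knockout libraries, against 787 and 712 in the parental RNA-seq libraries. On the deposited scaling the means were 407 ± 6.77 in the knockout and 749.6 ± 53.5 in parental cells (SD, n = 2 each). ADSL was 1.84-fold lower (log2 fold change -0.88, SE 0.17, or -0.57 after centring). A readthrough gene among the listed genes shares exonic bases with ADSL (chromosome 22, 40346500 to 40390463, plus strand) on its own strand, so its value is uncertain. ATIC, the bifunctional enzyme that adds the last formyl group and closes the ring to IMP, had 105.4 and 107 in the knockout libraries, against 242 and 388 in the parental RNA-seq libraries. The groups did not overlap, but parental replicate 1 lay well below parental replicate 2. ATIC was 2.87-fold lower (log2 fold change -1.52, SE 0.21, or -1.21 after centring). Before centring it ranged from -1.86 without parental replicate 1 to -1.19 without parental replicate 2. ATIC lies on chromosome 2, 215311817 to 215349773 on the plus strand.

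**Figure D2:**
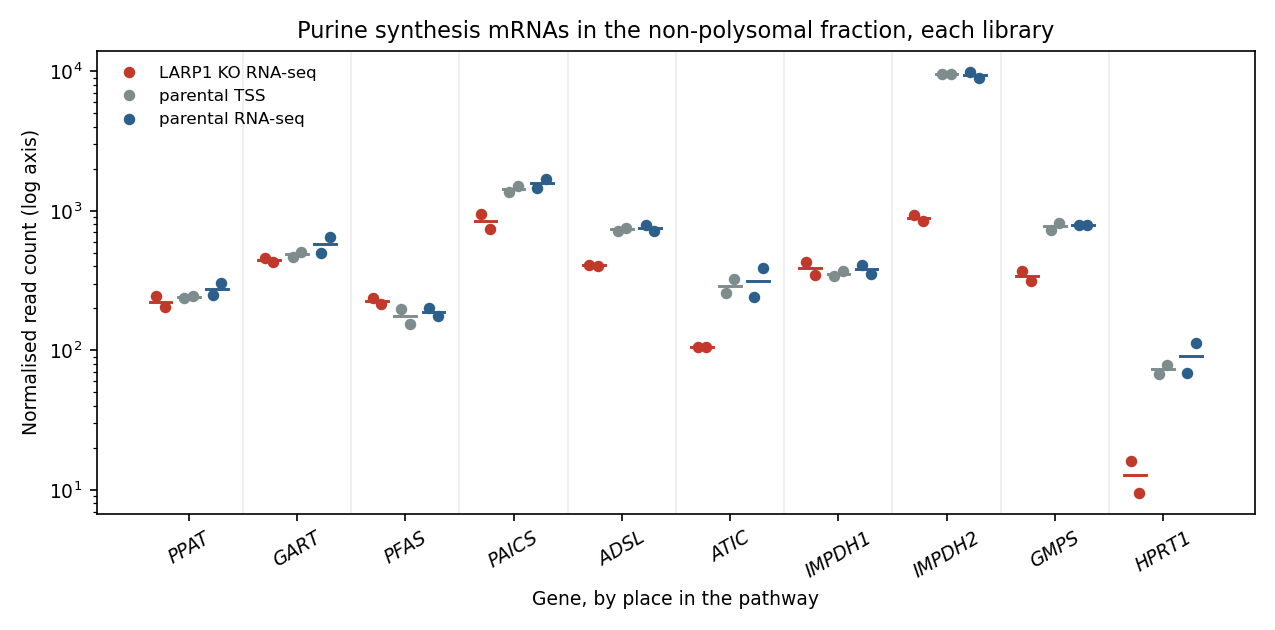
Each point is the normalised read count of a member in a library, on a log axis, with genes ordered by their place in the pathway and short lines at the group means (n = 2 libraries). IMPDH2 stands at 937 and 851 in knockout libraries, against 9899 and 8956 in parental RNA-seq libraries, while IMPDH1 overlaps between groups.

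Over the 10 members, both knockout libraries lay below both parental RNA-seq libraries for 8, above them for 1 (PFAS) and overlapped for 1 (IMPDH1). Among all genes tested, 50.4% lay below and 12.4% above in the same way. These counts depend on the scaling and were not made after centring. PPAT, at 0.01 after centring, could not lie below in both libraries there. The median log2 fold change of the members was -0.89, against -0.29 for all genes tested, and -0.58 against 0.02 after centring. Relative to the median gene, PPAT and GART were level, IMPDH1 and PFAS were above it, and the other 6 were below it. The summed normalised read count of all members was 4154 and 3615 in the knockout libraries, against 14607 and 14115 in the parental RNA-seq libraries. Without IMPDH2 it was 3217 and 2763 in the knockout libraries, against 4707 and 5159 in the parental RNA-seq libraries. IMPDH2 therefore held most of the summed difference.

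**Figure D3:**
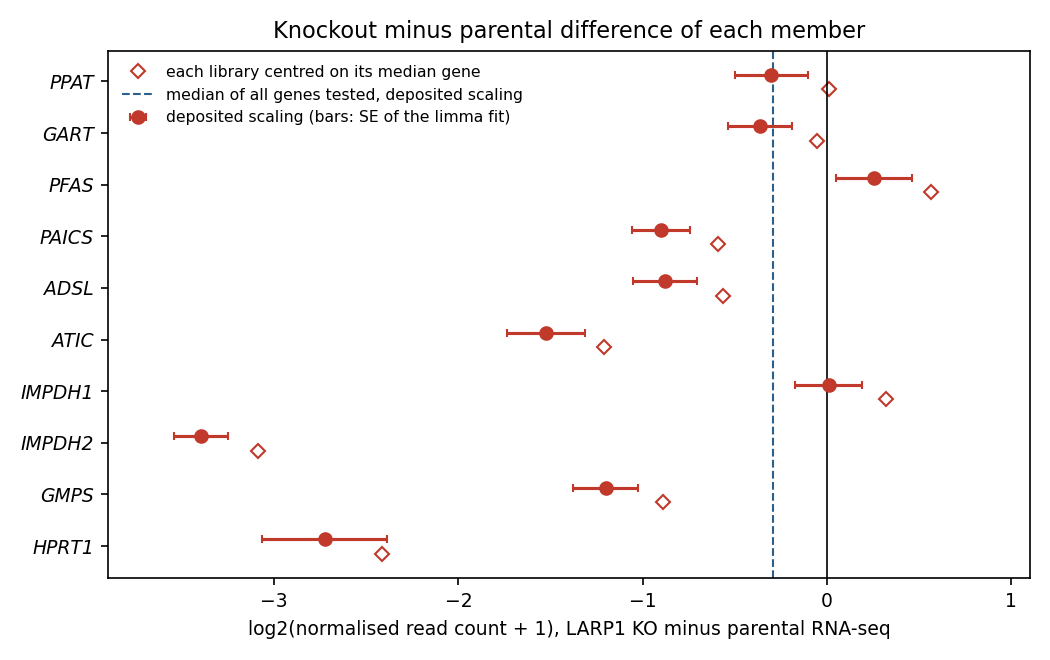
Filled points give the log2 difference of each member, knockout minus parental RNA-seq, with the SE of the fit as bars; open diamonds give it after centring, and the dashed line is the median of all genes tested at -0.29. IMPDH2 (-3.40) and HPRT1 (-2.73) lie farthest left, and PPAT and GART lie at the line.

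PAICS and PPAT are neighbours that point away from each other from a shared promoter region on chromosome 4, yet their differences were not equal. PPAT lies at 56393362 to 56435615 on the minus strand and PAICS at 56435741 to 56464579 on the plus strand, with 2 and 7 named pseudogenes. The log2 ratio of PAICS to PPAT reads was 1.95 and 1.87 in the knockout libraries, 2.51 and 2.62 in the TSS libraries and 2.56 and 2.46 in the parental RNA-seq libraries. Every knockout ratio was below every parental ratio, and the log2 fold changes differed by -0.60 (PAICS minus PPAT). The SEs of these fold changes were 0.16 for PAICS and 0.20 for PPAT, and their difference was not tested. The 136 bases between their RefSeq starts, chr4:56435616-56435751 on the plus strand of GRCh38.p14, are shown because both genes start from their ends, with each GGGCGG in capitals.
PPAT_PAICS: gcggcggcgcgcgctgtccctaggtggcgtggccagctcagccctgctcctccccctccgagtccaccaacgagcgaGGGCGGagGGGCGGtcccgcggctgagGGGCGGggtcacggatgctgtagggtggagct
The interval was 75.0% G and C and held GGGCGG 3 times on this strand and 0 times as CCGCCC. Among all promoter entries, 35.6% held either form in the 136 bases before the start. CACGTG, the E-box that MYC and related factors bind, which reads alike on both strands, was in the entry of 3 of the 8 matched members (PPAT, PAICS and ATIC), against 7.26% of all entries. The PPAT and PAICS entries overlap, so their matches are not separate observations.

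Levels between genes were compared per kilobase of the median coding transcript in GENCODE release 29, since no source used here states the authors' lengths. In the knockout libraries IMPDH2 was highest at 544 ± 37.0 normalised read counts per kilobase, followed by PAICS at 252 ± 42.2 and ADSL at 229.8 ± 3.82 (SD, n = 2 each). In the parental RNA-seq libraries IMPDH2 stood at 5738 ± 406 per kilobase, PAICS at 469.7 ± 46.9 and ADSL at 423 ± 30.2. PAICS and ADSL did not differ beyond their spread in either group. IMPDH1 stood at 157 ± 24.1 in the knockout and 156 ± 16.8 in parental cells, and GART at 130.3 ± 7.04 in the knockout and 169 ± 30.4 in parental cells. IMPDH1 was above GART in both knockout libraries, while in parental cells their ranges overlapped. GMPS stood at 63.6 ± 7.69 per kilobase in the knockout and 146 ± 0.516 in parental cells, and ATIC at 47.2 ± 0.346 in the knockout and 140.3 ± 45.8 in parental cells. PPAT had 60.7 ± 8.001 per kilobase in the knockout and 75.0 ± 10.9 in parental cells, and PFAS 78.1 ± 5.31 in the knockout and 65.4 ± 5.85 in parental cells. HPRT1 was lowest in both groups, at 9.10 ± 3.26 in the knockout and 64.2 ± 21.8 in parental cells, where PFAS and PPAT lay within its spread.

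The 3 genes whose levels ran most like those of IMPDH2 over the 4 RNA-seq libraries were RPS4X, a protein of the small ribosomal subunit (distance 0.0655), and RPL17 (0.104) and RPL31 (0.108) of the large subunit. The distance was taken between log2 values centred on each gene's own mean, among 7085 protein-coding genes above the median level. RPS4X had 4715 and 4224 normalised read counts in the knockout libraries, against 48118 and 46331 in the parental RNA-seq libraries. For IMPDH1 the nearest genes were GTPBP4, a GTPase of ribosome assembly (0.0295), RPTOR, the raptor subunit of mTOR complex 1 (0.0332), and NCAPD3, a condensin subunit (0.0339). These distances rest on 4 libraries of 2 groups, so they mostly follow the difference between the groups.

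The TSS libraries gave values that the choice of members did not use. The parental RNA-seq values set against them were known at that choice, so the comparison is only partly separate from it. The TSS libraries were made from the same parental RNA as the parental RNA-seq libraries and differ from them in how the library was built. No member was called between TSS and RNA-seq libraries (0 of 10 by limma or edgeR at an adjusted p under 0.05, and 0 at an unadjusted p under 0.05 by limma, edgeR or DESeq2), against 0.523% of the 14522 genes tested in either direction, 0.454% lower and 0.0689% higher. The labels pair the libraries by RNA sample. With that pairing as a block limma called 4.70% of genes and 0 members, with 1 member at an unadjusted p under 0.05. Over all 14522 genes, limma put 1588 at an unadjusted p under 0.05, and 2392 with the block. Without parental RNA-seq replicate 1, more members and more genes reached an unadjusted p under 0.05 by limma. In that fit, which leaves 1 library in a group, the log2 fold change of the median gene moved from -0.11 to -0.17. DESeq2 gave GART, PAICS, ADSL, IMPDH2 and GMPS an adjusted p, called none of them, and gave none to the other members. Over all genes 66 were lower, and this count was 367 without parental RNA-seq replicate 1, 125 without parental RNA-seq replicate 2 and 26 without TSS replicate 1. IMPDH2 had 9545 and 9489.7 normalised read counts in the TSS libraries, against 9899 and 8956 in the RNA-seq libraries, with a log2 fold change of 0.02 (SE 0.08, limma adjusted p = 0.970). IMPDH1 had 340.0 and 369 in the TSS libraries, against 412 and 353 in the RNA-seq libraries (-0.11 on the log2 scale, SE 0.13, limma adjusted p = 0.812). HPRT1 had 68.2 and 78.9 in the TSS libraries, against 68.7 and 112 in the RNA-seq libraries, and had the lowest value of the members (log2 fold change -0.26, SE 0.25, limma adjusted p = 0.762). Values of the 10 members ran from -0.26 to 0.02, where the median gene stood at -0.11, and the limma adjusted p-values from 0.565 for GART to 0.970 for IMPDH2. A p that misses the threshold does not show that levels were equal.

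On the deposited scaling, both knockout libraries also lay below both TSS libraries for 7 of the 10 members, against 41.7% of all genes tested. PPAT, with 244 and 203 in the knockout and 239 and 245 in the TSS libraries, was the member that no longer separated, beside IMPDH1 and PFAS. With the TSS libraries in place of the parental RNA-seq libraries, the log2 fold change was -3.41 for IMPDH2, -2.47 for HPRT1, -1.44 for ATIC, -1.17 for GMPS, -0.85 for ADSL and -0.77 for PAICS. It was -0.14 for GART, -0.12 for PPAT, 0.12 for IMPDH1 and 0.36 for PFAS, where the median gene stood at -0.17. These use the same knockout libraries and are no independent support. In the authors' deposited table, whose fold runs the other way, parental over knockout, IMPDH2 stands at 10.6 and IMPDH1 at 0.954.

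**Figure D4:**
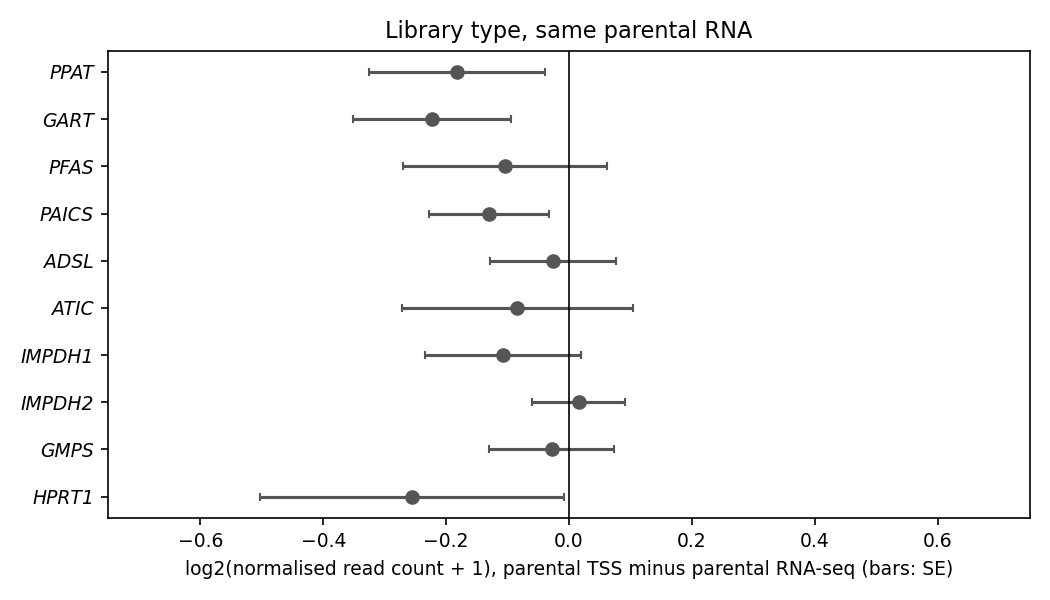
Points give the log2 difference of each member between TSS and RNA-seq libraries of the same parental RNA, with the SE of the limma fit as bars. The 10 values lie between -0.26 and 0.02, and none was called.

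Outside the 10 members, 79 further genes of nucleotide metabolism were measured in 7 lists, and of these 25 fell and 2 rose in the knockout at a limma adjusted p under 0.05. That is to be read against 25.1% and 3.77% of all genes tested. After centring, 15 fell and 11 rose. The median of the 79 was -0.35, or -0.04 after centring. The count of those that fell was 10 without parental replicate 2 and 13 without parental replicate 1.

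Among the genes that interconvert adenine and guanine nucleotides, 5 of 18 fell and 1 rose, with a median of -0.38; after centring 4 fell and 3 rose. GMPR2, the GMP reductase that turns GMP back into IMP, had 228 and 200.1 normalised read counts in the knockout libraries, against 1292 and 1176 in the parental RNA-seq libraries. It fell 5.75-fold (log2 fold change -2.52, SE 0.17, limma adjusted p = 2.57e-45). NME2, a nucleoside diphosphate kinase that makes GTP from GDP, had 3199 and 2941 in the knockout libraries, against 12631 and 12235 in the parental RNA-seq libraries. It fell 4.05-fold (-2.02, SE 0.14, limma adjusted p = 1.20e-42), and NME1 and an NME1-NME2 readthrough gene share its sequence, so its value is uncertain. GMPR2 and NME2 showed the largest falls of this list, with both knockout libraries below both parental ones. Without the intensity trend their limma adjusted p-values were 0.00153 and 0.00265. For the genes named below that kept their call without it, these ran from 0.00385 (SHMT2) to 0.0424 (GFPT2).

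Among the genes of PRPP supply and purine salvage, 4 of 11 fell and 0 rose (limma; median -0.33). After centring 2 fell and 1 rose, and the median was -0.02. APRT, which salvages adenine as HPRT1 salvages hypoxanthine and guanine, had 424 and 406 in the knockout libraries, against 929 and 726 in the parental RNA-seq libraries. It fell 1.98-fold (log2 fold change -0.98, SE 0.17, limma adjusted p = 1.44e-07). ADA, adenosine deaminase, had 47.4 and 32.1 in the knockout libraries, against 88.8 and 117 in parental RNA-seq libraries, and fell 2.57-fold (-1.36, SE 0.28, limma adjusted p = 9.12e-06). MTAP, the most abundant gene of this list, which frees adenine from methylthioadenosine, fell by 0.49 on the log2 scale (SE 0.16, limma adjusted p = 0.00950). That call was lost after centring (limma adjusted p = 0.132) and without parental replicate 1, parental replicate 2 or knockout replicate 2 (0.212, 0.362 and 0.0757). It was also lost with TMM factors (0.0977) and without the intensity trend (0.185).

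Among the genes that break down purines or clean the pool, 5 of 12 fell and 0 rose (limma; median -0.44). After centring 1 fell and 2 rose, with a median of -0.12. NT5E, the cell-surface nucleotidase that makes adenosine from AMP, had 442 and 353 in the knockout libraries, against 1216 and 1343 in parental RNA-seq libraries, and fell 3.23-fold (log2 fold change -1.69, SE 0.17, limma adjusted p = 1.66e-22). NT5C3B, a cytosolic nucleotidase, fell by 0.46 on the log2 scale (SE 0.16, limma adjusted p = 0.0162), a call lost after centring (limma adjusted p = 0.283) and without either parental replicate (0.418 and 0.220), as well as with TMM factors (0.231) and without the intensity trend (0.187).

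Of the folate genes that supply formyl groups for the ring, 2 of 12 fell and 0 rose (limma; median -0.30). With centred libraries 2 fell and 1 rose. SHMT2 and MTHFD2, the mitochondrial serine hydroxymethyltransferase and the methylene-tetrahydrofolate dehydrogenase after it, were those 2. SHMT2 had 215 and 165 in the knockout libraries, against 972 and 776 in parental RNA-seq libraries, and fell 4.60-fold (log2 fold change -2.20, SE 0.18, limma adjusted p = 3.44e-32). MTHFD2 had 571 and 409.7 in the knockout libraries, against 1081 and 1026 in parental RNA-seq libraries, and fell 2.18-fold (log2 fold change -1.12, SE 0.17, limma adjusted p = 3.47e-10).

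Of the genes of pyrimidine synthesis and salvage, 5 of 14 fell and 0 rose (limma; median -0.45). With centred libraries 3 fell and 2 rose, and the median was -0.14. CMPK1, the kinase of UMP and CMP, had 393 and 289.5 in the knockout libraries, against 692 and 745 in parental RNA-seq libraries, and fell 2.12-fold (log2 fold change -1.09, SE 0.18, limma adjusted p = 1.07e-08). TYMS, thymidylate synthase, had 209 and 156 in the knockout libraries, against 302 and 412 in parental RNA-seq libraries, and fell 1.95-fold (-0.96, SE 0.20, limma adjusted p = 1.14e-05). TYMS was lost without parental replicate 2 (limma adjusted p = 0.109) and without the intensity trend (0.0660).

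All 3 subunits of ribonucleotide reductase, which turns ribonucleotides into deoxyribonucleotides, fell (limma; median -0.84, or -0.53 after centring, where 2 fell). RRM1, the large subunit, had 315 and 320.2 in the knockout libraries, against 611 and 739 in parental RNA-seq libraries, and fell 2.11-fold (log2 fold change -1.08, SE 0.18, limma adjusted p = 1.96e-08). RRM2, the S-phase small subunit, was 1.79-fold down (-0.84, SE 0.17, limma adjusted p = 8.58e-06); leaving out parental replicate 2 or the intensity trend ended this call (limma adjusted p = 0.0814 and 0.0649). Of the glutamine transporters and other glutamine amidotransferases, 1 of 9 fell and 1 rose, with a median of -0.30; after centring 1 fell and 2 rose. SLC38A2, a glutamine transporter, had 2668 and 2131 in the knockout libraries, against 3619.8 and 4445 in parental RNA-seq libraries, and fell 1.68-fold (-0.75, SE 0.15, limma adjusted p = 3.95e-06). GFPT2, which uses glutamine to make glucosamine phosphate, had 102 and 85.3 in the knockout libraries, against 52.5 and 43.9 in parental RNA-seq libraries, and rose 1.93-fold (0.95, SE 0.27, limma adjusted p = 0.00297). SLC38A2 and GFPT2 were lost without parental replicate 2 (limma adjusted p = 0.148 and 0.0975), and SLC38A2 also without the intensity trend (0.0890).

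**Figure D5:**
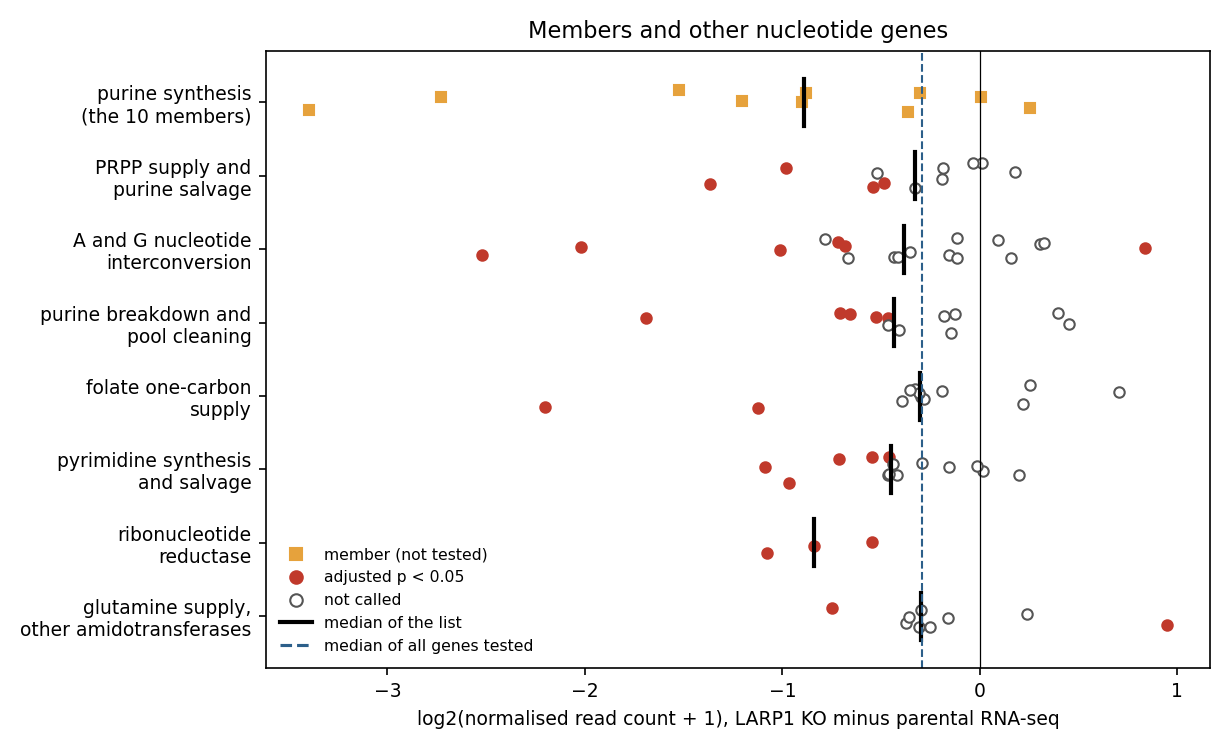
Each point is a gene, placed by its log2 difference between knockout and parental RNA-seq libraries; red points were called at a limma adjusted p under 0.05, open points were not, and squares are the 10 members, which were not tested. Black bars are list medians, from -0.30 to -0.84 in the 7 lists, and the dashed line is the median of all genes tested.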

How the data were processed

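The members and gene lists were chosen with earlier results of these data known. The submitters' processing notes name STAR 2.6, RSEM, SAMtools, DESeq2 and GRCh38. The authors deposited, per gene and library, a signal equal to the read count divided by 1 size factor; dividing by the step of 1 read gave whole reads for 100% of values (tolerance 0.001). The file headers also give the authors' fold change as a linear ratio and as log2 with its standard error, a test score, p-values with adjusted ones and their −log10, deposited for parental over knockout. The 6 library columns were matched to samples by title.

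Of 14574 identifiers, 99.7% matched GENCODE release 29 (GRCh38) without version. Tests used limma-trend (R 4.3.3, limma 3.58.1; two-sided) with log2(value + 1) as input, keeping genes that reached 1 in 2 or more of the 4 libraries compared, with Benjamini-Hochberg adjustment over all genes tested and calls under 0.05; lists used the same fit. The planned test assumed such values. Fold changes on this scale understate those of low genes, and in the knockout comparison the prior degrees of freedom were infinite, so there the trend over level set each gene's spread. An exact permutation of 2 against 2 cannot go below p = 0.333. Scripts were tested on simulated data. TSS and RNA-seq libraries of 1 number share their RNA per the labels; their deviations correlated at 0.0312. Named genes were all members, LARP1, per list the 2 smallest adjusted p-values and the most abundant gene, and the 3 nearest patterns for each IMPDH gene. Alternatives were other scalings, filters, pseudocounts, edgeR 4.0.16 and DESeq2 1.42.0 on recovered reads, no trend, a replicate block, other parental libraries and leaving out each library. edgeR called 3628 genes lower and 511 higher in the knockout.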

Additional observations from a re-analysis of the deposited data

How the results depend on the processing

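IMPDH2 stayed between -3.47 and -3.09 in every alternative run, and its distance from IMPDH1 did not depend on scaling. The median of the members was -0.58 after centring and -0.59 with TMM factors, and ran from -0.98 to -0.80 with each library left out. PPAT, at -0.30, was 0.01 after centring and -0.0059 with TMM factors. Without 1 library of the knockout comparison, genes called lower ran from 1673 to 4294 and higher from 262 to 469, and genes of the other lists from 10 to 34 and from 1 to 3. In all genes, lower and higher calls were 2365 and 2119 after centring, 2437 and 1976 with TMM factors, 1962 and 282 without the intensity trend, and 2536 and 292 with DESeq2. Higher calls were 925 with TSS libraries as parental and 826 when RNA-seq and TSS were averaged. In the other lists, lower and higher calls were 15 and 11 after centring and with TMM factors and 10 and 1 without the trend, and higher calls were 7 and 6 with the TSS libraries or that average as parental. With the replicate number as a block these lists had 15 lower, and all genes 2771 lower and 388 higher. Deviations of same-numbered knockout and parental libraries correlated at -0.0232. For TSS and RNA-seq libraries, which share their RNA by number, the value was 0.0312. Such a correlation therefore cannot tell whether the number pairs knockout and parental libraries. The block changed the call of MTAP (limma adjusted p = 0.0575) and NT5C3B (0.0787), and no other call of a named gene.

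Between TSS and RNA-seq libraries, lower and higher calls were 3 and 7 after centring, 8 and 8 with TMM factors, 0 and 1 with no filter (1449 at an unadjusted p under 0.05), 80 and 6 with at least 5 in every library, 41 and 4 with a pseudocount of 0.1, 3 and 4 without the trend, 92 and 1 with DESeq2, and 630 and 52 with the replicate block. With each library left out they ran from 26 to 367 lower and from 6 to 49 higher. No alternative called a member, though DESeq2 gave an adjusted p to only 5 of the 10. Members near 0 changed sign: after centring IMPDH1 was 0.038, GMPS 0.12, PFAS 0.041, PAICS 0.015, ADSL 0.12 and ATIC 0.061, and with TMM factors IMPDH1 was 0.0098, GMPS 0.089, PFAS 0.012, ADSL 0.091 and ATIC 0.033. With each library left out, IMPDH1 ran from -0.22 to 0.0028, IMPDH2 from -0.057 to 0.088, GMPS from -0.11 to 0.058, PFAS from -0.28 to 0.068, ADSL from -0.099 to 0.046, ATIC from -0.42 to 0.25 and HPRT1 from -0.61 to 0.094. The cause of these changes was not tested. Depth limits HPRT1 most, with 14 to 92 reads per library.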
